A study of Mus musculus with 9 samples.

Results

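The genes described here are the histone genes of a time course of reprogramming in mouse embryonic fibroblasts. They were chosen by symbol, as every gene of the deposited table whose name begins with Hist1h to Hist4h, H2af, H3f or H1f. That gave 30 genes of the 12550 in the table. Of these, 20 carry Hist symbols and are called replication-dependent here, and 10 are replacement variants, namely H2afj, H2afv, H2afx, H2afy, H2afy2, H2afz, H3f3a, H3f3b, H1f0 and H1fx. All 30 had a mean signal of at least 20 and entered the tests.

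The fibroblasts (MEFs) of strain C57Bl/6cJ were transfected with plasmids for Oct4, Sox2, Klf4 and c-Myc, kept in embryonic stem cell medium with leukemia inhibitory factor, and given a short hairpin RNA in a pretroSuper vector. The hairpin was directed against Hnrnpk, an RNA-binding protein, against lincRNA-p21, a long noncoding RNA encoded by Trp53cor1, or against luciferase as the control, and total RNA was sequenced on days 6, 9 and 12. Each of the 3 hairpin arms has 1 library a day, which makes 9, and every one is labelled as merged replicates, so no spread between replicates can be measured. The tests therefore set a difference between arms against its variation over the days, and a difference between days against its variation over the arms.

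The deposited columns sum to between 24741867.5 and 24748094.5, and read depth is unknown. Hnrnpk had a signal of 11349, 17016 and 12793 on days 6, 9 and 12 with its own hairpin, against 31243, 26944 and 23376 with the luciferase hairpin. Trp53cor1 had 90.5, 122 and 97 with the lincRNA-p21 hairpin, against 286.5, 237 and 250 with the luciferase hairpin, and it was also low, at 131, 137 and 119.5, with the Hnrnpk hairpin. All 7 fibroblast markers were in the table, with a summed signal between 169290.5 and 346059.5 over the libraries. Col1a2 stood at the highest value of the table, 118715, in 7 of 9 libraries and Vim in 4, so this sum does not measure the share of fibroblasts. Cd68 was the 1 macrophage marker of 5 in the table, Tek the 1 endothelial marker of 4, and 3 of 4 keratinocyte markers had a summed signal between 462.5 and 5784.5. In bulk RNA, fewer cells of a type and less RNA per cell cannot be told apart.

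Histone genes come in these kinds because chromatin is built in different ways. Replication-dependent genes sit in clusters, lack introns as a rule, and are transcribed in S phase, when new DNA has to be packaged. Their messenger RNAs end in a stem-loop that is bound by the stem-loop binding protein Slbp, in place of a poly(A) tail. Replacement variants are mostly single genes with polyadenylated messages, made throughout the cell cycle, and their proteins are placed in chromatin outside replication by dedicated chaperones.

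Of 67 Hist genes annotated as protein-coding in GENCODE M21 (build GRCm38, the same assembly as mm10), 18 were in the table, and 10 of 15 replacement genes were. The other 2 Hist members, Hist1h2aj and Hist1h2al, are annotated as pseudogenes. The Hist members lie on chromosome 13 (15 genes), chromosome 3 (4 genes between positions 96238108 and 96248509) and chromosome 11 (1 gene, Hist3h2a). The symbols Hist2h2aa1 and Hist2h2aa2 are exchanged between the table and the annotation; here they are used as in the table.

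The stem-loop that sets the replication-dependent messages apart was found in the annotated transcripts of 14 of the 20 Hist members and of 1 replacement gene, H2afx. Among all annotated genes of the same names it was found in 46 of 67 Hist genes and 1 of 15 replacement genes. Its 16 bases were identical in 11 members. The sequences below, from GENCODE M21 transcripts, show the loop of a gene with a large fall (Hist1h2ap, chr13:21833026-21833049, minus strand), of both Hist genes that rose with time (Hist1h2bk, chr13:22036295-22036320, and Hist1h1c, chr13:23739507-23739532, plus strand), of an H4 gene (Hist1h4h, chr13:23531453-23531478, plus strand) and of H2afx (chr9:44335235-44335260, plus strand). Capitals mark the 16 bases of the loop and its stem.
Hist1h2ap: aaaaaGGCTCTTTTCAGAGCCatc
Hist1h2bk: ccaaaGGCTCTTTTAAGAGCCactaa
Hist1h1c: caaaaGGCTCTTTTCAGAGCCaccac
Hist1h4h: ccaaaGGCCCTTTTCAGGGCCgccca
H2afx: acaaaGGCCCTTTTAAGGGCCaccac
Counted from 1 at the 5′ end of the capitals, Hist1h2bk differed from the commonest loop by C10A. Hist1h4h differed by T4C and A13G, a matched pair in the stem, and H2afx by T4C, C10A and A13G.

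Many of the Hist members are near-identical copies, and the sources used here do not say how reads were divided between copies. Over 50% of the 50-base windows of the transcript were shared with other annotated genes in 13 of 20 Hist members and in 0 of 10 replacement genes. The coding sequences of Hist1h2ap and Hist1h2ao were 100% identical, as were those of Hist1h2bq and Hist1h2br, of Hist2h2aa1 and Hist2h2aa2, and of Hist2h3c1 and Hist2h3c2. Hist1h2ad shared 99.2% of its coding bases with Hist1h2ap and encodes the same protein of 130 residues. H3f3a and H3f3b, which both encode the H3.3 protein of 136 residues, differed at more sites, with 76.7% of coding bases identical. The values of single members within a group of copies are therefore uncertain.

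The largest differences in the histone genes were between day 6 and the later days. Between day 6 and day 9, 16 of the 20 replication-dependent genes fell and 2 rose, with a median difference of -1.39 on the log2(signal + 10) scale, while 1 of the 10 replacement genes fell and 3 rose, with a median of 0.20 (limma, Benjamini-Hochberg adjusted p under 0.05). Over all 12541 genes tested, 39.9% were called in this comparison, 21% lower and 18.9% higher, and the median difference was -0.01. The replication-dependent median was -0.90 with members of a mean under 100 left out, and -0.93 with members whose protein is identical to another member's left out. The latter kept only Hist1h1c, Hist3h2a, Hist1h2ah, Hist1h2bk and the pseudogenes Hist1h2aj and Hist1h2al. Of these, Hist1h2ah, Hist1h2aj, Hist1h2al and Hist1h2bk shared 67.6% to 93.1% of their windows with other genes. It therefore does not show what the median would be without near-identical copies.

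**Figure D1:**
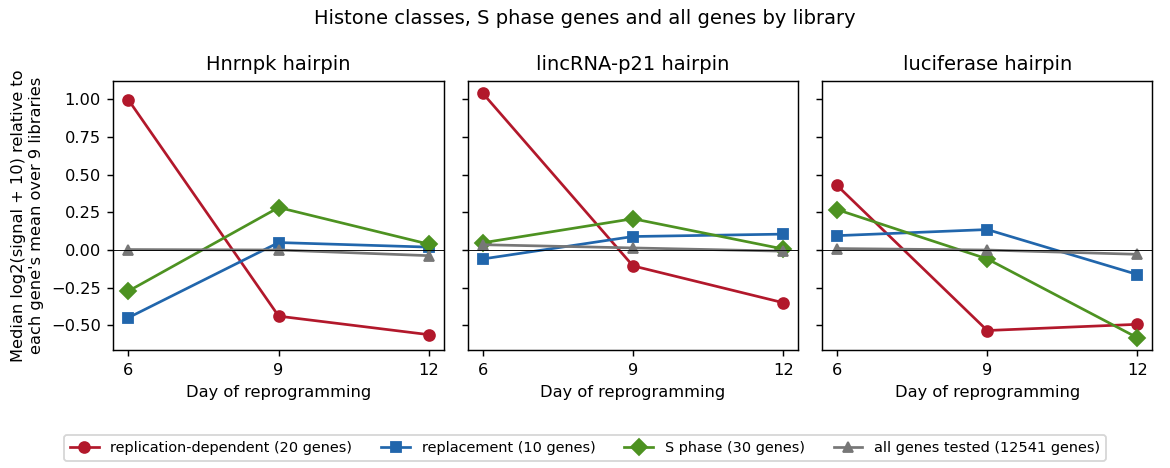
Median log2(signal + 10), relative to each gene's mean over the 9 libraries, against day of reprogramming, for the Hnrnpk, lincRNA-p21 and luciferase hairpin arms; each point is the median over the genes of 1 set in 1 library. The replication-dependent median lay between 0.43 (luciferase hairpin) and 1.04 (lincRNA-p21 hairpin) on day 6 and was below 0 in all 6 later libraries.

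The 3 largest falls were in H2A genes. Hist1h2aj, annotated as an unprocessed pseudogene on chromosome 13, had a signal of 383, 8 and 1 on days 6, 9 and 12 with the Hnrnpk hairpin, 528, 10 and 5.5 with the lincRNA-p21 hairpin, and 830.5, 4.5 and 2.5 with the luciferase hairpin. Hist1h2ap, which encodes a canonical H2A, had 2661, 301 and 235.5 with the Hnrnpk hairpin, 3696, 192 and 183 with the lincRNA-p21 hairpin, and 7543, 208 and 126.5 with the luciferase hairpin. Hist1h2ao, its copy with the same coding sequence, had 47, 63 and 176.5 on day 6 in the Hnrnpk, lincRNA-p21 and luciferase arms, and was listed at 0 in all 6 later libraries. In each of these genes every day 6 library was above every later library. The day 9 minus day 6 difference was -5.02 for Hist1h2aj (SE 0.28, limma adjusted p = 2.49e-05) and -4.14 for Hist1h2ap (SE 0.37, limma adjusted p = 0.000187). For Hist1h2ao the fitted difference of -3.20 (SE 0.39, limma adjusted p = 0.00062) depends on the 10 added to each value and sets no bound on the fold.

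Hist1h2ad, another gene for the same H2A protein, had 53, 8 and 7 with the Hnrnpk hairpin, 93, 15 and 3 with the lincRNA-p21 hairpin, and 126.5, 11 and 4.5 with the luciferase hairpin, a difference of -2.18 by day 9 (SE 0.31, limma adjusted p = 0.00118). Hist1h2ah had 53.5, 20 and 21.5 with the Hnrnpk hairpin, 87.5, 15.5 and 25.5 with the lincRNA-p21 hairpin, and 139, 37.5 and 9 with the luciferase hairpin (difference -1.56, SE 0.38, limma adjusted p = 0.0133). These 5 genes were all highest in the luciferase arm on day 6. In the remaining H2A genes the luciferase arm was the lowest on that day. Hist2h2aa2 had 230, 48 and 76.5 with the Hnrnpk hairpin, 210, 97.5 and 122.5 with the lincRNA-p21 hairpin, and 142.5, 32 and 118.5 with the luciferase hairpin (difference -1.65, SE 0.28, limma adjusted p = 0.00254). Hist2h2aa1, which encodes the same H2A protein as Hist2h2aa2, had 832.5, 374.5 and 296.5 with the Hnrnpk hairpin, 602, 402.5 and 352 with the lincRNA-p21 hairpin, and 291.5, 342 and 392 with the luciferase hairpin, and did not pass the test (-0.49, SE 0.29, limma adjusted p = 0.206). It was lower after day 6 in both knockdown arms and higher in the luciferase arm.

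Hist1h2al, annotated as a processed pseudogene, had 107, 22 and 13 with the Hnrnpk hairpin, 69, 22 and 20 with the lincRNA-p21 hairpin, and 37, 14 and 31.5 with the luciferase hairpin, and fell by 1.38 between day 6 and day 9 (SE 0.37, limma adjusted p = 0.0176). Hist3h2a, the single H2A gene on chromosome 11, had 285, 185 and 236.5 with the Hnrnpk hairpin, 384, 236 and 251 with the lincRNA-p21 hairpin, and 248, 225.5 and 282.5 with the luciferase hairpin. Its fall of 0.47 was the smallest of the called falls (SE 0.15, limma adjusted p = 0.0409). On day 12 with the luciferase hairpin Hist3h2a stood above its day 6 value.

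The H3 genes fell as a group of 3, and all 3 encode the same replication-dependent H3 protein. Hist2h3c2 had 228.5, 25 and 21.5 with the Hnrnpk hairpin, 312, 56.5 and 38.5 with the lincRNA-p21 hairpin, and 148, 21 and 26.5 with the luciferase hairpin (difference -2.46, SE 0.21, limma adjusted p = 0.000143). Hist2h3c1 had 177, 23.5 and 23 with the Hnrnpk hairpin, 223, 74.5 and 37 with the lincRNA-p21 hairpin, and 110.5, 42 and 44 with the luciferase hairpin (difference -1.72, SE 0.30, limma adjusted p = 0.00279). Hist1h3d had 46, 11 and 6.5 with the Hnrnpk hairpin, 62, 20 and 12 with the lincRNA-p21 hairpin, and 39, 7 and 5.5 with the luciferase hairpin (difference -1.40, SE 0.24, limma adjusted p = 0.00246). In all 3 genes each day 6 library was above each later library, and day 6 was highest with the lincRNA-p21 hairpin and lowest with the luciferase hairpin, an order that differs from that of Hist1h2ap.

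Of the H2B genes 4 fell and 1 rose. Hist1h2bc had 1411.5, 718 and 1054.5 with the Hnrnpk hairpin, 1758.5, 569.5 and 637 with the lincRNA-p21 hairpin, and 522, 479 and 695 with the luciferase hairpin (difference -0.90, SE 0.29, limma adjusted p = 0.0383). Its day 6 values were high in the knockdown arms, and in the luciferase arm day 12 was the highest of the 3 days. Hist1h2br, whose coding sequence is identical to that of Hist1h2bq, had 145, 30 and 51 with the Hnrnpk hairpin, 102, 27.5 and 23 with the lincRNA-p21 hairpin, and 83.5, 35 and 49.5 with the luciferase hairpin (difference -1.53, SE 0.25, limma adjusted p = 0.00226). Hist1h2bq had 84, 35.5 and 14 with the Hnrnpk hairpin, 98, 53 and 42.5 with the lincRNA-p21 hairpin, and 65, 39 and 28 with the luciferase hairpin (difference -0.81, SE 0.24, limma adjusted p = 0.0249). Both of these copies were higher in each arm on day 6 than on either later day. Hist1h2be had 109, 65 and 47.5 with the Hnrnpk hairpin, 103.5, 53 and 62 with the lincRNA-p21 hairpin, and 76.5, 51.5 and 41.5 with the luciferase hairpin, a fall of 0.67 (SE 0.18, limma adjusted p = 0.0187).

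Hist1h2bk went the other way. It had 17.5, 132.5 and 124 with the Hnrnpk hairpin, 26, 130 and 97 with the lincRNA-p21 hairpin, and 7.5, 64.5 and 66 with the luciferase hairpin, so that every later library was above every day 6 library. The difference between day 9 and day 6 was 2.14 (SE 0.19, limma adjusted p = 0.000189), a 4.41-fold rise on the scale of signal + 10. The day 6 signals of Hist1h2bk, between 7.5 and 26, were low, so this fold depends on the 10 added. The linker histone gene Hist1h1c, which encodes H1.2, also rose, with 1095, 1523 and 1727.5 in the Hnrnpk arm, 1114.5, 1693.5 and 1983 in the lincRNA-p21 arm, and 941.5, 2107 and 2342 in the luciferase arm (difference 0.74, SE 0.14, limma adjusted p = 0.00436). Its signal increased from day to day in all 3 arms.

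The 2 H4 genes encode the same protein and behaved differently. Hist1h4h had 49.5, 29 and 15.5 with the Hnrnpk hairpin, 103, 46 and 18.5 with the lincRNA-p21 hairpin, and 28.5, 14 and 12 with the luciferase hairpin, and fell by 0.77 (SE 0.27, limma adjusted p = 0.0487). Hist1h4i had 79, 66.5 and 72.5 with the Hnrnpk hairpin, 127.5, 138.5 and 120 with the lincRNA-p21 hairpin, and 69.5, 101 and 94.5 with the luciferase hairpin, a difference of 0.12 (SE 0.17, limma adjusted p = 0.599). Its day values overlapped, and the lincRNA-p21 arm was the highest on each day.

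**Figure D2:**
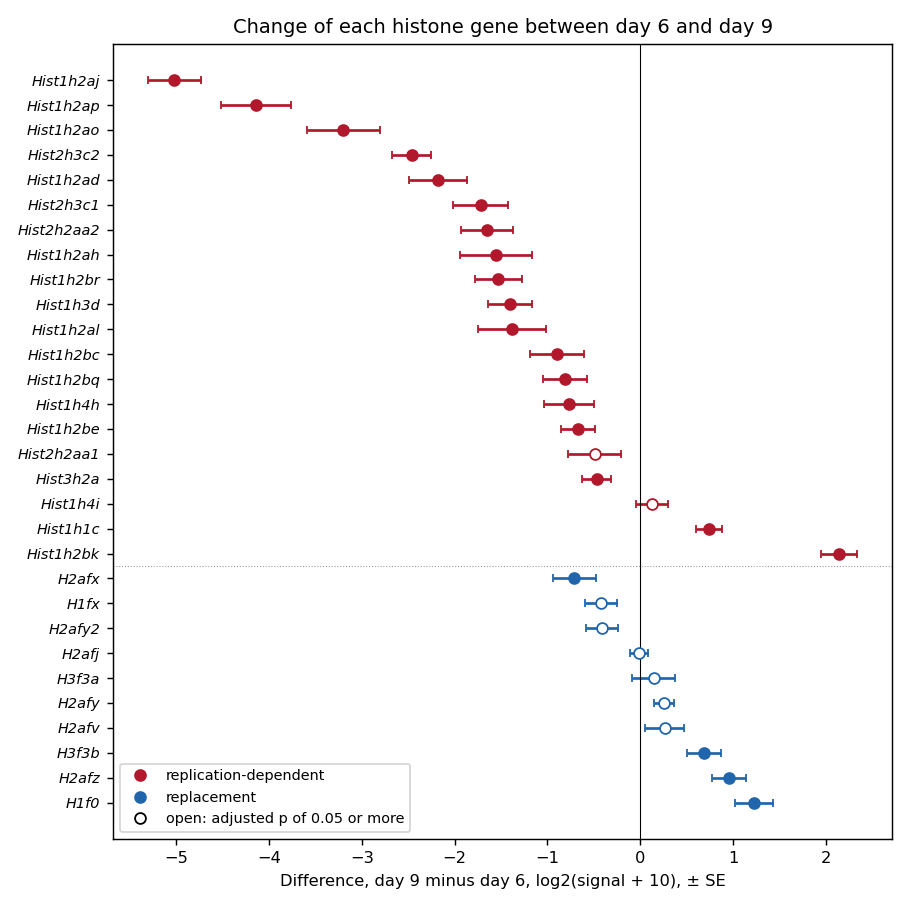
Difference between day 9 and day 6 for each of the 30 histone genes in log2(signal + 10), with bars of 1 SE from the limma model; filled points had an adjusted p under 0.05. The falls reach -5.02 for Hist1h2aj, and the rises among the replication-dependent genes are 2.14 for Hist1h2bk and 0.74 for Hist1h1c.

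Among the replacement variants, the linker histone gene H1f0, whose H1.0 protein is known from differentiated and non-dividing cells, rose. It had 1959.5, 5991 and 5145.5 with the Hnrnpk hairpin, 2483.5, 6566 and 6067 with the lincRNA-p21 hairpin, and 4979.5, 7869 and 6042 with the luciferase hairpin (difference 1.22, SE 0.20, limma adjusted p = 0.00239). H2afz, which encodes H2A.Z, found at promoters, had 7665, 17713 and 17039 with the Hnrnpk hairpin, 7683, 16078.5 and 14721.5 with the lincRNA-p21 hairpin, and 9563, 14529 and 10345 with the luciferase hairpin (difference 0.96, SE 0.18, limma adjusted p = 0.00429). H3f3b, one of the H3.3 genes, had 7603.5, 14959 and 15031 with the Hnrnpk hairpin, 8994.5, 15329 and 14643 with the lincRNA-p21 hairpin, and 11970, 14896 and 11384.5 with the luciferase hairpin (difference 0.69, SE 0.18, limma adjusted p = 0.0181). For all 3 genes the luciferase arm was highest on day 6. For H2afz and H3f3b the luciferase arm was the lowest on day 12.

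H3f3a, the other H3.3 gene, had 11801.5, 18478 and 22121 with the Hnrnpk hairpin, 18872, 18118 and 18011 with the lincRNA-p21 hairpin, and 23133, 20748.5 and 15857 with the luciferase hairpin. Its signal went up over the days in the Hnrnpk arm, stayed between 18011 and 18872 in the lincRNA-p21 arm, and went down in the luciferase arm, and the mean difference over the arms was 0.14 (SE 0.23, limma adjusted p = 0.656). H2afx, whose H2A.X protein is phosphorylated at DNA breaks, was the 1 replacement gene to fall, with 3044, 2922.5 and 2447 in the Hnrnpk arm, 5372.5, 3131 and 2987 in the lincRNA-p21 arm, and 5884, 2394.5 and 1890.5 in the luciferase arm (difference -0.71, SE 0.23, limma adjusted p = 0.037). H2afx was also the replacement gene in which the stem-loop was found, and a link of the loop to the fall was not tested. The other 5 replacement genes, H2afy and H2afy2 for the macroH2A proteins, H2afv for the second H2A.Z protein, H2afj and H1fx, had differences between -0.42 and 0.26 and did not pass the test.

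Some of these calls were lost when 1 library was left out. Of the 22 histone genes called between day 6 and day 9, 13 kept the call with each of the 9 libraries left out in turn, namely Hist1h2aj, Hist1h2ap, Hist1h2ao, Hist1h2ad, Hist1h2br, all 3 H3 genes, Hist2h2aa2, Hist1h2bk, Hist1h1c, H1f0 and H2afz. The count was 14 without the luciferase library of day 9, where 24.4% of all genes were called, against 39.9% with all libraries. It was 13 without the lincRNA-p21 library of day 6 (29% of all genes) or of day 9 (24.8%). It was 11 without the whole lincRNA-p21 arm (14.2%). The calls lost without at least 1 single library were those of Hist1h2ah, Hist1h2al, Hist1h2bc, Hist1h2be, Hist1h2bq, Hist1h4h, Hist3h2a, H2afx and H3f3b, and the calls of H2afz and Hist1h3d were lost as well without the lincRNA-p21 arm. None changed direction.

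**Figure D3:**
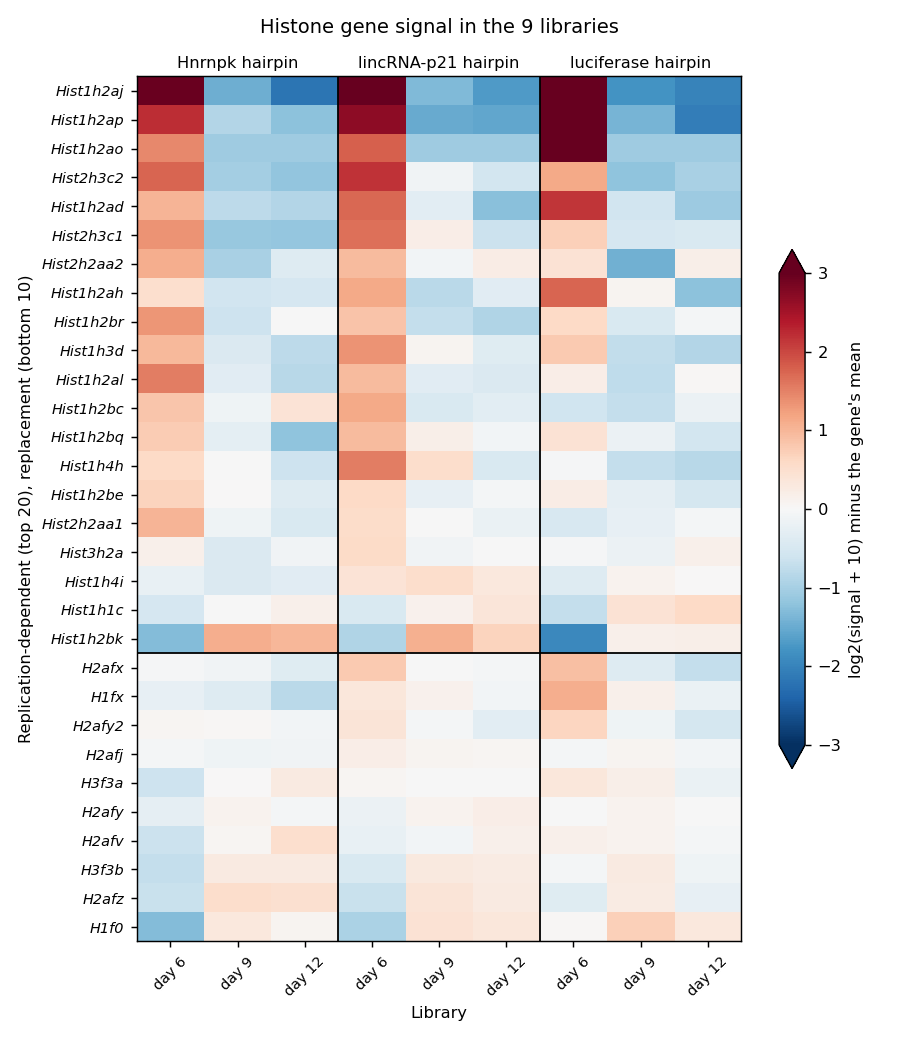
Heat map of log2(signal + 10) minus each gene's mean over the 9 libraries, with the 30 histone genes in rows (replication-dependent above the line, replacement below) and the libraries in columns by arm and day; colours end at -3 and 3. The day 6 columns are high for most of the upper rows, and Hist1h2bk is low in all 3.

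From day 9 to day 12 little more was seen. In that comparison 0 of 30 histone genes passed the test (limma, Benjamini-Hochberg), 1 had an unadjusted p under 0.05, as did 1769 of the 12541 genes tested, and 0.654% of all genes were called. The gene with the unadjusted p under 0.05 was Hist2h2aa2, with a difference of 0.83 (SE 0.28, limma adjusted p = 0.244). Between day 6 and day 12, 49.3% of all genes were called, 27% lower and 22.3% higher, and 14 of 20 replication-dependent genes fell and 2 rose, with a median of -1.32. That median was -0.60 with members of a mean under 100 left out, and -0.77 with members whose protein is identical to another member's left out. The replication-dependent genes not called were Hist1h2bc, Hist3h2a, Hist2h2aa1 and Hist1h4i. Among the replacement genes 3 rose (H1f0, H2afz and H3f3b) and 3 fell.

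The 3 that fell between day 6 and day 12 were H2afx (-0.93, SE 0.23, limma adjusted p = 0.00954), H1fx and H2afy2. H1fx, which encodes the linker histone H1.X, had 874.5, 801.5 and 596 with the Hnrnpk hairpin, 1331, 1136 and 988 with the lincRNA-p21 hairpin, and 2222, 1171 and 908 with the luciferase hairpin (difference between day 12 and day 6 of -0.75, SE 0.17, limma adjusted p = 0.00673). H2afy2, for macroH2A2, which is known to hold back reprogramming of mouse fibroblasts together with macroH2A1, had 948, 934 and 858.5 with the Hnrnpk hairpin, 1187, 868 and 725 with the lincRNA-p21 hairpin, and 1423.5, 830.5 and 623 with the luciferase hairpin (difference -0.67, SE 0.17, limma adjusted p = 0.0119). Both declined with each later day in all 3 arms. H2afy, for macroH2A1, had 3712.5, 4832.5 and 4309 with the Hnrnpk hairpin, 3987, 4779 and 5158.5 with the lincRNA-p21 hairpin, and 4411.5, 4784 and 4469 with the luciferase hairpin, and its difference of 0.20 did not pass the test (SE 0.11, limma adjusted p = 0.149). The count of 22 called genes between day 6 and day 12 was 12 without the lincRNA-p21 arm. There 24.5% of all genes were called, against 49.3% with all libraries. The calls of H2afz, H2afy2, H3f3b, Hist1h2al and Hist2h2aa2 were lost without at least 1 single library, and those of 17 genes were kept without each.

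Some of the H2A and H2B genes lie head to head and share the stretch between their start sites. Hist1h2ah and Hist1h2bk start 177 bases apart, Hist1h2ap and Hist1h2br 267 bases apart, and Hist1h2bq and Hist1h2ao 167 bases apart. In the first pair, Hist1h2ah fell and Hist1h2bk rose. In the other pairs both genes fell, with differences of -4.14 in Hist1h2ap, -1.53 in Hist1h2br and -0.81 in Hist1h2bq, while Hist1h2ao was listed at 0 from day 9. The sequences below show the whole stretch between Hist1h2ah and Hist1h2bk (chr13:22035644-22035820, plus strand), because its genes moved apart. They also show 250 bases before the start of Hist1h2ap (chr13:21833476-21833725, minus strand), and 140 bases before the start of the replacement gene H2afz (chr3:137864347-137864486, plus strand), which rose. All are RefSeq promoters of build GRCm38.p6, and capitals mark CCAAT on either strand (ATTGG when read on the other) and the octamer ATTTGCAT.
Hist1h2bk: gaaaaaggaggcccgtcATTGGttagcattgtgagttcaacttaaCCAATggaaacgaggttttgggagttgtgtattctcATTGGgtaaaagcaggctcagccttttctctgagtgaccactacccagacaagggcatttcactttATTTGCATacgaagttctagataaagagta
Hist1h2ap: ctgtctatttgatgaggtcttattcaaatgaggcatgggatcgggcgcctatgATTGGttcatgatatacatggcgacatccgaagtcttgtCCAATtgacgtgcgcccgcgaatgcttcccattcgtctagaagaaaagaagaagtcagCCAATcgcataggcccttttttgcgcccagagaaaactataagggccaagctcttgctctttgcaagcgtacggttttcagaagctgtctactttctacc
H2afz: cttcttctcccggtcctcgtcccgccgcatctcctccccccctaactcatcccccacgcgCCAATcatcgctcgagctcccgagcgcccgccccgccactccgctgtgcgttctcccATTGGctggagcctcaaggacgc
The stretch between Hist1h2ah and Hist1h2bk holds 3 CCAAT boxes and 1 octamer, that of Hist1h2ap 3 CCAAT boxes and no octamer, and that of H2afz 2 CCAAT boxes.

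RefSeq promoters were matched for 24 of the 30 histone genes, 15 of them replication-dependent. Within 250 bases before the start, on both strands, CCAAT was found in 11 of 15 replication-dependent and 5 of 9 replacement genes, against 33.8% of all 32851 promoters. TATAAA was found in 3 of 15 and 1 of 9, against 12.4% of all promoters. ATTTGCAT was found in 4 of 15 and 1 of 9, against 1.6% of all promoters. Head-to-head genes share part of these windows, so the promoters are not independent, and a match is a description of the letters and not a binding site.

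**Figure D4:**
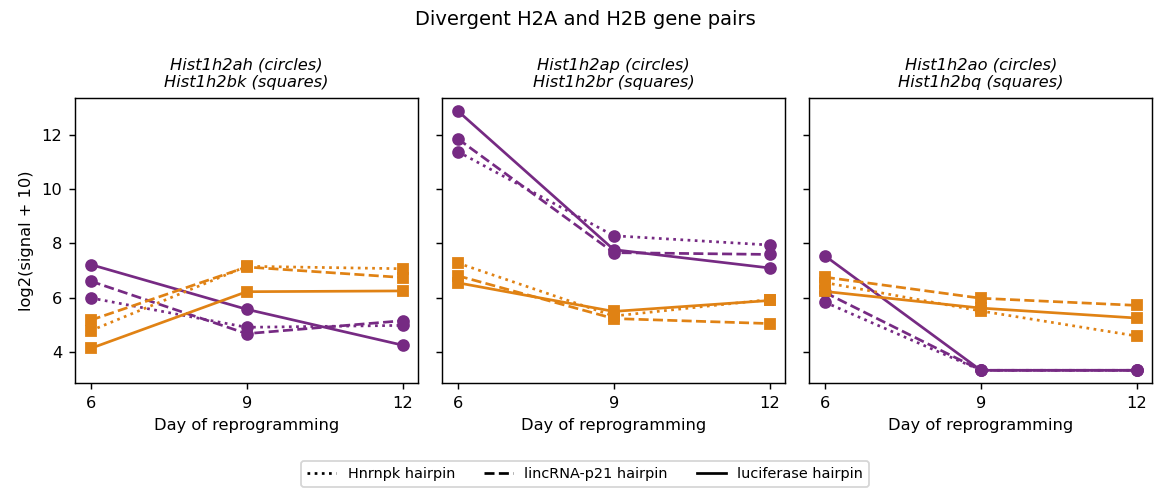
Signal as log2(signal + 10) by day for the 3 head-to-head pairs, with H2A genes as circles, H2B genes as squares, and line types for the Hnrnpk, lincRNA-p21 and luciferase hairpin arms. In the pair of Hist1h2ah and Hist1h2bk the lines cross after day 6, and Hist1h2ao is listed at 0 on days 9 and 12.

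The fall of the replication-dependent genes was set beside the features of their transcripts. Over all genes tested, 21% were called lower and 18.9% higher between day 6 and day 9. In the 7 members with a stem-loop and at most 50 annotated bases after it, 5 fell and 1 rose between day 6 and day 9, with a median of -1.65. In the 7 with a stem-loop and over 300 bases after it, 5 fell and 1 rose, with a median of -0.67. In the 6 with no stem-loop found, 6 fell, with a median of -1.46. This group depends on the annotation. The main transcripts of Hist1h2bq and Hist1h2br have 381 bases, 378 of them coding, and that of Hist1h2ah has 405, 384 of them coding. They end at or near the coding sequence, so a loop beyond it could not be found there. Hist1h2aj and Hist1h2al are the pseudogenes, and Hist1h2bc has a transcript of 2 exons. The 13 members with over 50% of windows shared with other genes had 11 falls and 1 rise and a median of -1.65, and the 7 below had 5 falls and 1 rise and a median of -0.67. These splits overlap in their members, and no difference between them was tested.

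Markers of cell state and of RNA class were read over the same days. Of 30 S phase genes, 1 fell (Ccne2, cyclin E2, -0.45) and 1 rose (Pola1, a subunit of DNA polymerase alpha, 0.57) between day 6 and day 9. Their median was 0.13, and 39.9% of all genes were called. Between day 6 and day 12, where 49.3% of all genes were called, 3 S phase genes fell, Ccna2 by 0.85, Rrm2 by 0.72 and Ccne2 by 0.68. The summed signal of the S phase genes was 66235, 101701 and 86525.5 on days 6, 9 and 12 with the Hnrnpk hairpin, 77611, 97316.5 and 84706 with the lincRNA-p21 hairpin, and 106407, 81528.5 and 57277 with the luciferase hairpin. The S phase median, relative to each gene's mean, was -0.27 on day 6 and 0.28 on day 9 with the Hnrnpk hairpin. It was 0.05 and 0.21 with the lincRNA-p21 hairpin, and 0.27 and -0.06 with the luciferase hairpin. The S phase sum and median stood higher on day 9 than on day 6 in both knockdown arms, and lower in the luciferase arm. The median of the replication-dependent genes stood lower in all 3 arms.

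Of 7 RNAs listed as readouts of RNA preparation, 4 were in the table, Malat1, Neat1, Rn7sk and Rpph1. Neat1, a long noncoding RNA of paraspeckles, rose by 1.19 on the log2 scale between day 6 and day 9, and Rpph1, the RNA of RNase P, which has no poly(A) tail, rose by 1.76 (limma adjusted p = 0.000262 and 0.00555). Rn7sk, another RNA without a poly(A) tail, differed by -0.52 between day 6 and day 9 and by -1.12 between day 6 and day 12. It was not called in either (limma adjusted p = 0.338 and 0.0509). Malat1 differed by 0.53 between day 6 and day 9 and was not called (limma adjusted p = 0.0655). Between day 6 and day 12 Malat1, Neat1 and Rpph1 were called higher. Of all genes, 39.9% were called by day 9 and 49.3% by day 12. Malat1 was also lower with the lincRNA-p21 than with the Hnrnpk hairpin (difference -1.06, limma adjusted p = 0.0352), where 3.26% of all genes were called. The sources used here do not say how RNA was selected before sequencing. The summed signal of 8 pluripotency markers was 330.5, 5388 and 10457 with the Hnrnpk hairpin, 295.5, 2207.5 and 6587.5 with the lincRNA-p21 hairpin, and 309.5, 803.5 and 1032.5 with the luciferase hairpin. The part of cell state, of S phase and of RNA preparation in the histone changes was not tested.

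Genes that process histone messages or handle histone proteins were followed as a list of 40 genes, 41 entries of the table since Srcap has 2. Between day 6 and day 9, 8 entries fell and 6 rose, with a median of 0.15, where 39.9% of all genes were called. Among the called entries, the largest differences were a rise of 0.96 in Anp32e, a chaperone that removes H2A.Z (SE 0.16), and of 0.70 in Supt16, a subunit of the FACT complex (SE 0.21), and falls of 0.79 in 1 entry of Srcap, which loads H2A.Z (SE 0.11), and of 0.70 in Asf1b, a chaperone of H3 and H4 (SE 0.18). Their limma adjusted p-values were 0.00264, 0.0275, 0.00107 and 0.0143. The other Srcap entry differed by -0.17 and was not called (SE 0.10, limma adjusted p = 0.193). Between day 6 and day 12, 11 entries fell and 3 rose, where 49.3% of all genes were called, led by falls in Asf1b (-1.18), Srcap (-0.98 in 1 entry and -0.36 in the other, both counted), Znhit1, a subunit of the same H2A.Z complex (-0.74), and Vps72, another of its subunits (-0.72). Slbp, the stem-loop binding protein, had 1073, 1583 and 1465.5 with the Hnrnpk hairpin, 1317, 1604.5 and 1383.5 with the lincRNA-p21 hairpin, and 1677.5, 1267.5 and 952 with the luciferase hairpin, and was not called in any comparison.

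The hairpin arms were compared over all 3 days. Between the Hnrnpk and the luciferase hairpin, 2 of 30 histone genes passed the test, H1fx lower and Hist1h2bk higher, where 12.5% of all genes were called, 6.94% lower and 5.58% higher (limma, Benjamini-Hochberg). H1fx was lower with the Hnrnpk hairpin on each day, with a difference of -0.83 (SE 0.17, limma adjusted p = 0.0174). Hist1h2bk was higher with the Hnrnpk hairpin on each day, with a difference of 0.80 (SE 0.19, limma adjusted p = 0.0316). The call of H1fx was lost without the Hnrnpk library of day 12 (limma adjusted p = 0.0571). That of Hist1h2bk was lost without the luciferase library of day 9 or day 12, the Hnrnpk library of day 9 or day 12, or the lincRNA-p21 library of day 9, with limma adjusted p-values between 0.065 and 0.14. The histone count was 0 without the Hnrnpk library of day 12, where 6.05% of all genes were called. It was 1 without any one of the 3 day 9 libraries. There 4.46% of all genes were called without the luciferase, 4.81% without the Hnrnpk and 7.71% without the lincRNA-p21 library. The count was 0 without all of day 9 (0.199% of all genes) or all of day 12 (2.93%), and 6 without all of day 6 (23.9%).

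H1f0 had the next smallest adjusted p in this comparison, with a difference of -0.66 (SE 0.20, limma adjusted p = 0.0699), and Hist1h2bc followed with 0.86 (SE 0.29, limma adjusted p = 0.0885). The median difference was 0.07 over the replication-dependent genes and -0.09 over the replacement genes, against 0.00 over all genes. No gene of the S phase or of the histone processing and chaperone list was called.

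Between the lincRNA-p21 and the luciferase hairpin, 0 of 30 histone genes passed the test, and 0.00797% of all genes did, which is 1 gene (limma, Benjamini-Hochberg). At an unadjusted p under 0.05 there were 6 histone genes, all replication-dependent and all higher with the lincRNA-p21 hairpin, and 1730 of the 12541 genes tested. They were Hist1h4h (difference 1.05, SE 0.27), Hist2h3c2 (0.85, SE 0.21), Hist1h2bk (0.81, SE 0.19), Hist2h2aa2, Hist1h3d and Hist1h4i, and the smallest limma adjusted p was 0.132. The median was 0.33 over the replication-dependent genes, or 0.11 with the members whose protein is identical to another member's left out, and 0.00 over the replacement genes, against 0.02 over all genes. Both knockdown arms share the luciferase libraries, so these values and those of the Hnrnpk arm are not independent of one another.

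Between the lincRNA-p21 and the Hnrnpk hairpin, 0 of 30 histone genes passed the test, where 3.26% of all genes were called, and 5 histone genes had an unadjusted p under 0.05, as did 2381 of the 12541 genes tested (limma, Benjamini-Hochberg). Hist1h4i came closest, with a difference of 0.75 (SE 0.17, limma adjusted p = 0.0599), and H1fx followed with 0.61 (SE 0.17, limma adjusted p = 0.0995). The count was 2 without the luciferase library of day 6 (7.65% of all genes called) or without all of day 6 (5.18%).

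Within a day the arms were compared with 1 library each and no test. All 10 replacement genes were lower with the Hnrnpk than with the luciferase hairpin on day 6, with a median of -0.72, where 52.5% of all genes were lower. On the same day Cd68, the macrophage marker, had a signal of 780 with the Hnrnpk hairpin, 171 with the lincRNA-p21 hairpin and 120.5 with the luciferase hairpin. The keratinocyte markers summed to 845, 518 and 462.5 in the same order of arms. The fibroblast markers did not move together. In that order Col1a1 had 62313, 35392.5 and 21817, Thy1 2149, 2098 and 1838, and Twist1 2073.5, 1749 and 1405. Col3a1 had 14760, 67808.5 and 19438.5 and Postn 1187.5, 1581.5 and 1590, both lowest with the Hnrnpk hairpin. Col1a2 and Vim stood at 118715 in each arm. The part of these markers in the result was not tested. Of the 20 replication-dependent genes 15 were higher and 5 lower, with a median of 0.39, where 47.1% of all genes were higher. Those 5 lower genes were Hist1h2ap, Hist1h2aj, Hist1h2ao, Hist1h2ad and Hist1h2ah and were each at least 2-fold lower on the scale of signal + 10. They shared between 67.1% and 93.5% of their 50-base windows with other genes. Since the division of reads between copies is unknown, they may not be 5 separate signals. Another 3 replication-dependent genes were at least 2-fold higher, where 4.53% of all genes were at least 2-fold higher and 2.08% at least 2-fold lower.

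With the lincRNA-p21 hairpin on day 6, 9 of 10 replacement genes were lower than with the luciferase hairpin, with a median of -0.30, where 47.2% of all genes were lower. Of the 20 replication-dependent genes 15 were higher and 5 lower, with a median of 0.54, where 52.3% of all genes were higher. At least 2-fold higher were 5 of them, where 1.66% of all genes were. At least 2-fold lower were 2, where 0.773% of all genes were. These 2 were Hist1h2ap and Hist1h2ao, which have identical coding sequences and may not be separate signals. On day 9, 4 of 10 replacement genes were higher with the lincRNA-p21 hairpin (52.6% of all genes higher) and 5 of 10 with the Hnrnpk hairpin (50.8% of all genes higher), with medians of 0.00 and -0.02. On day 12, 10 of 10 replacement genes were higher with the lincRNA-p21 hairpin (median 0.21, 50.2% of all genes higher) and 6 of 10 with the Hnrnpk hairpin (median 0.39, 48% of all genes higher). Of the replication-dependent genes on day 9, 15 were higher and 4 lower with the lincRNA-p21 hairpin (median 0.31), and 11 were higher and 8 lower with the Hnrnpk hairpin (median 0.15). On day 12, 11 of them were higher and 8 lower with the lincRNA-p21 hairpin (median 0.18), and 9 were higher and 10 lower with the Hnrnpk hairpin (median -0.09). Whether the difference on day 6 departs from that on days 9 and 12 was tested for each gene, in a comparison chosen after these values had been seen. In it 0% of the 12541 genes passed for either hairpin (limma, Benjamini-Hochberg), with 1971 genes at an unadjusted p under 0.05 for the Hnrnpk and 1125 for the lincRNA-p21 hairpin. The smallest adjusted p of a histone gene was 0.218 in that limma model. It differed from the main model and left 3 residual degrees of freedom. Each arm had 1 level for day 6 and 1 for days 9 and 12 together. The spread therefore came only from differences between day 9 and day 12. With 1 library an arm on day 6, the lack of calls does not show that the day 6 differences equal the later ones.

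**Figure D5:**
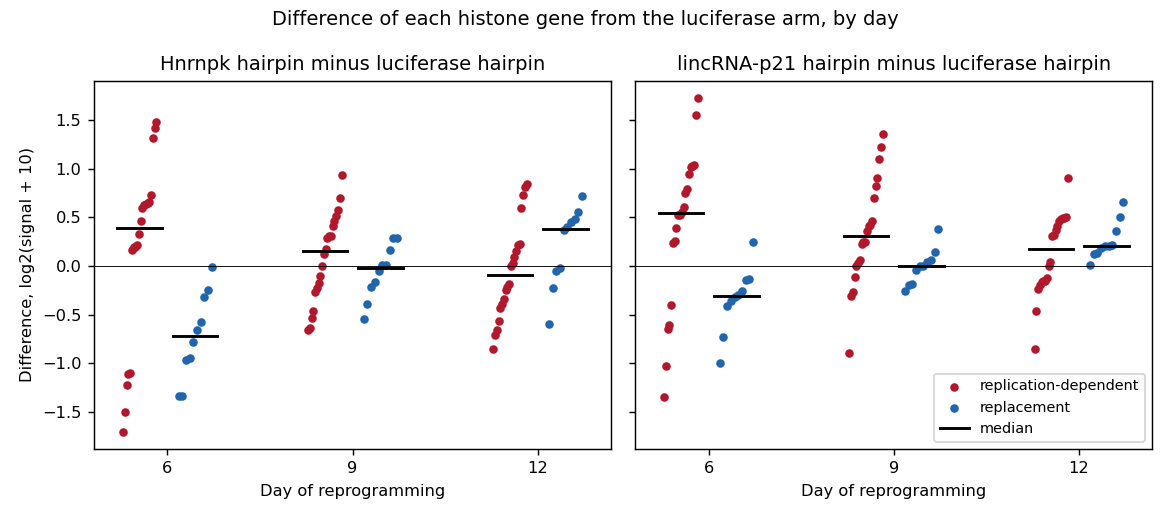
Difference of each histone gene from the luciferase arm in log2(signal + 10), by day, for the Hnrnpk hairpin (left) and the lincRNA-p21 hairpin (right); each point is 1 gene, with 1 library in each arm, and lines mark medians. On day 6 the replacement medians are -0.72 and -0.30 and the replication-dependent medians 0.39 and 0.54.

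The summed signal shows how much 1 gene weighs in the replication-dependent total. On day 6 the 20 genes summed to 8094 with the Hnrnpk hairpin, 9762.5 with the lincRNA-p21 hairpin and 11626 with the luciferase hairpin, and Hist1h2ap made up 32.9% of the sum with the Hnrnpk hairpin, 37.9% with the lincRNA-p21 hairpin and 64.9% with the luciferase hairpin. Without Hist1h2ap the day 6 sums were 5433 with the Hnrnpk hairpin, 6066.5 with the lincRNA-p21 hairpin and 4083 with the luciferase hairpin. The luciferase arm thus had the highest sum with this gene and the lowest without it. On day 9 the 20 genes summed to 3625.5 in the Hnrnpk, 3852.5 in the lincRNA-p21 and 3835.5 in the luciferase arm, and on day 12 to 4045 in the Hnrnpk, 4033 in the lincRNA-p21 and 4371.5 in the luciferase arm. By family, the 9 H2A genes summed on day 6 to 4652 with the Hnrnpk hairpin, 5732.5 with the lincRNA-p21 hairpin and 9534.5 with the luciferase hairpin. The 5 H2B genes summed to 1767 with the Hnrnpk hairpin, 2088 with the lincRNA-p21 hairpin and 754.5 with the luciferase hairpin. The 3 H3 genes summed to 451.5 with the Hnrnpk hairpin, 597 with the lincRNA-p21 hairpin and 297.5 with the luciferase hairpin. The sources used here do not say whether the signal is divided by transcript length, so sums over genes weigh long and short transcripts in an unknown way.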

How the data were processed

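Per the labels, RNA extracted with TRIzol from 9 samples was made into libraries by standard Illumina methods, and each library is called merged replicates. The deposited table gives a signal for 12550 genes in 9 columns. The submitters' processing notes name RSEM 1.2.12, Bowtie 1.0.1 and mm10. How the authors scaled the signal, how many replicates were merged and how reads of copies were divided are not given in the sources used here. Read depth is unknown, so count models were not used.

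Here, 10 was added to each value before the log2, and 12541 genes with a mean of at least 20 were tested in R 4.3.3 with limma 3.58.1. The main model held arm and day as additive terms, left 4 residual degrees of freedom, and was moderated with an intensity trend. Benjamini-Hochberg adjustment covered all genes tested, with a threshold of 0.05. The main model was tested on simulated data. Within a day, 1 library an arm was compared with no test. The replicates behind each library may be technical.

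Histone genes were matched to GENCODE M21, 29 by identifier and 1 by symbol, and promoters were taken from RefSeq. The members and the gene lists were chosen with earlier results of these data known. Values in all libraries are given for members called in any comparison and for the 3 members of each class with the highest mean. Those of Hist2h2aa1, Hist1h4i and H2afy are given as well, although these genes meet neither condition. From each list up to 4 called genes a comparison are named. Alternatives covered the added value, the filter, the trend, the scaling, the terms of the model, and leaving out each library, day or arm.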

Additional observations from a re-analysis of the deposited data

How the results depend on the processing

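No histone call changed direction under any alternative run. Between day 6 and day 9 the count of 22 called genes ranged from 11 to 23 with a library or an arm left out, and between day 6 and day 12 the count of 22 ranged from 12 to 25. The share of all genes called ranged from 14.2% to 44.7% and from 24.5% to 49.6% in the same runs. Under all settings 11 genes kept the call in each of these comparisons. Between the Hnrnpk and luciferase hairpins the count of 2 was 0 with no day term, 0 with only the libraries compared, and 0 to 6 with a library or a day left out. Of all genes 0.00797%, 2.63%, and 0.199% to 23.9% were called in these runs. Between the lincRNA-p21 and Hnrnpk hairpins the count of 0 was 1 without the intensity trend, 2 with only the libraries compared, and 0 to 2 with a library or a day left out. The shares of all genes called were 3.74%, 5.15%, and 0% to 7.65%. The replication-dependent median moved with the genes counted. Leaving out members whose protein is identical to another member's gave 0.11 for the lincRNA-p21 minus luciferase hairpin (0.33 with all), -0.93 for day 9 minus day 6 and -0.77 for day 12 minus day 6. Near-identical copies of other genes remained among the members kept. Leaving out members with a mean signal under 100 gave -0.90 for day 9 minus day 6, 0.19 for day 12 minus day 9 (-0.14 with all) and -0.60 for day 12 minus day 6. Adding 1 in place of 10 before the log2 gave -1.75 for day 9 minus day 6. Centring each library on its median lost no histone call. It could change little, because the library medians over all genes, relative to each gene's mean, already lay between -0.04 and 0.04. The cause of these shifts was not tested. No paired analysis was possible because the labels carry no replicate numbers, and day is already a term of the model. With depth unknown, no counting error can be given for low signals. Such signals include those of Hist1h2ao, Hist1h2aj, Hist1h2ad, Hist1h2ah, Hist1h3d and Hist1h4h, and those of Hist1h2bk on day 6.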
